A study of Saccharomyces cerevisiae with 10 samples.

Results

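Box H/ACA small nucleolar RNAs (snoRNAs) of the budding yeast Saccharomyces cerevisiae were followed in 10 RNA-Seq libraries in which the RNA polymerase II (RNA pol II) foot mutation rpb1-84 and the deletion of RRP6, which codes for a nuclear exosome subunit, were present alone or together. The members were taken from a list of 27 box H/ACA snoRNAs, and a member was used when the deposited table of 10431 features held a row under its own name. This was so for 24 of the 27. snR10 shares its row with the open reading frame (ORF) YGL088W, in which it lies, and was left out of all counts of members; snR80 and snR161 were not analysed here. The RefSeq annotation describes all 24 as box H/ACA snoRNAs. By the RNA they guide, 16 act on 25S rRNA, 5 on 18S rRNA, 2 (snR49 and snR189) on both, and snR30 acts in pre-rRNA cleavage.

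The study asked whether the fall of non-coding RNAs in rpb1-84 cells depends on the nuclear exosome. 5 strains were grown in rich medium (YPD) at 30 °C to an OD600 of about 0.8, with 2 independent biological replicates each. The 4 strains WT (YFN116), rpb1-84 (YFN519), rrp6∆ (YFN543) and rpb1-84 rrp6∆ (YFN545) are MATα, share the markers his3-∆200, trp1-∆63 and ura3-52 and a mutant leu2 allele, and lack chromosomal RPB1 (rpb1-∆187::HIS3). In all of them the largest RNA pol II subunit therefore came from a multicopy 2µm LEU2 plasmid, with RPB1 (pYEB220) in WT and rrp6∆ and with rpb1-84 (pYEB220-84) in the others. The rrp6∆::KanMX4 allele was in rrp6∆ and rpb1-84 rrp6∆, and both strains came from a common rrp6∆ parent. The rpb1-84 strain also carried RPB4::TAP::TRP1, an epitope tag on the RNA pol II stalk subunit Rpb4 that no other strain had. rpb4∆ (Y01285) was of another lineage, MATa his3-∆1 leu2-∆0 met15-∆0 ura3-∆0 rpb4∆::kanMX4. The WT libraries belong to the rrp6 experiment. The wild types to which the rpb1-84 and rpb4∆ libraries were set in the study come from other series and were not used here, so rpb1-84 and rpb4∆ are given beside this WT without a test.

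Box H/ACA snoRNAs fold into a pair of hairpins joined by a hinge (the H box) and followed by a short tail with the ACA box a few bases before the 3′ end. With the proteins Cbf5, Gar1, Nhp2 and Nop10 they form particles in which Cbf5 converts a chosen uridine of rRNA into pseudouridine, and the snoRNA picks that uridine by base pairing. In yeast most of them are transcribed by RNA pol II from genes of their own, their transcription is ended by the Nrd1-Nab3-Sen1 complex, and their 3′ ends are trimmed by the nuclear exosome with Rrp6 after TRAMP or Pap1 has added a short poly(A) tail. Mature snoRNAs carry no poly(A) tail. The libraries were primed at poly(A) (QuantSeq 3′ tags), so a level here is that of molecules that could be primed, not of the whole snoRNA pool. As each library is a bulk culture, fewer cells with an RNA and less RNA per cell cannot be told apart.

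The 3′ ends are shown for 7 members that were chosen by their changes and not by sequence. snR34 and snR35 had the largest change on loss of RRP6 and snR36 and snR86 the smallest. snR84 and snR49 had the highest and the lowest difference between rpb1-84 rrp6∆ and rrp6∆, and snR189 had the most negative difference between the RPB1 alleles. Each line holds the last 20 bases of the annotated snoRNA and the 100 bases that follow, 5′ to 3′ on the strand of the RNA, from the RefSeq R64 genome. Capitals mark the ACA box (or the triplet at its place 3 bases before the annotated end), the Nab3-type motif TCTT and the Nrd1-type motifs GTAA and GTAG in the downstream part. The windows are at chrXII:899363-899482, plus strand for snR34; chrXV:759226-759345, minus strand for snR35; chrXV:680585-680704, minus strand for snR36; chrXIII:762010-762129, minus strand for snR86; chrIV:1492377-1492496, minus strand for snR84; chrXIV:716265-716384, plus strand for snR49 and chrIII:178510-178629, minus strand for snR189.
snR34: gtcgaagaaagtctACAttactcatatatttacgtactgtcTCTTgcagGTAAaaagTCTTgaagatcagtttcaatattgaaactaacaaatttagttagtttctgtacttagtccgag
snR35: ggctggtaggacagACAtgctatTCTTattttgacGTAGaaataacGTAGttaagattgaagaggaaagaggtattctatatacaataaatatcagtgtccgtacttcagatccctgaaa
snR36: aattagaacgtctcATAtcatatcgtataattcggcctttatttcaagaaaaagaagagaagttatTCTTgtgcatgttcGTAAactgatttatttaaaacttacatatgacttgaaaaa
snR86: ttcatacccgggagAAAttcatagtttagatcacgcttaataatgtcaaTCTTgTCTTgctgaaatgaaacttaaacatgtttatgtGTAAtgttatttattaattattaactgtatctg
snR84: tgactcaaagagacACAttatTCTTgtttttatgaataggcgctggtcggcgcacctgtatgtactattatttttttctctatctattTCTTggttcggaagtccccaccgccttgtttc
snR49: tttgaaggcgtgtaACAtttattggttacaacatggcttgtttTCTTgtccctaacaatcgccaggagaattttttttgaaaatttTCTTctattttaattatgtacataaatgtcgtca
snR189: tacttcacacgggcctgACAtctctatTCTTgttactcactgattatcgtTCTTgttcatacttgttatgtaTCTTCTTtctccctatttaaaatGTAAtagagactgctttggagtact

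TCTT was present on the RNA strand downstream of 24 of the 24 members (100%), with 1 to 4 matches each, against 51.5% of 6002 windows of the same length after protein-coding genes. On the opposite strand the shares were 41.7% and 44.8%. GTAA or GTAG was present in 79.2% of the members' windows and 53.0% of the protein-coding ones on the RNA strand, and in 62.5% and 56.7% on the opposite strand. A TCTT match can share its last base with the next one, as it does after snR189, and cannot overlap GTAA or GTAG. These matches describe the letters of the windows and not sites that were measured. The triplet 3 bases before the annotated end was ACA in 11 members, ATA in 4 (snR3, snR8, snR36 and snR43) and AAA in 2 (snR82 and snR86). In the other 7 the annotated end lies elsewhere: in snR189 and snR30 the last 3 bases themselves are ACA. None of the 24 overlaps another annotated gene.

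The whole sequences of snR34 and snR36 are given to set the member with the largest change beside the member with the smallest change that was still called. snR34 (chrXII:899180-899382, plus strand) is 203 bases long, guides positions 2826 and 2880 of 25S rRNA and ends in the canonical ACA. snR36 (chrXV:680685-680866, minus strand) is 182 bases long, guides position 1187 of 18S rRNA, has ATA in the place of ACA and holds a run of 7 A. Capitals mark these triplets.
snR34: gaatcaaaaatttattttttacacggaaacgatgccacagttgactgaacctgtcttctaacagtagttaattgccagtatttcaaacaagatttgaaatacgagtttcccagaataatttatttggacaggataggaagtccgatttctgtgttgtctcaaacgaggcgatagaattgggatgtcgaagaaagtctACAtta
snR36: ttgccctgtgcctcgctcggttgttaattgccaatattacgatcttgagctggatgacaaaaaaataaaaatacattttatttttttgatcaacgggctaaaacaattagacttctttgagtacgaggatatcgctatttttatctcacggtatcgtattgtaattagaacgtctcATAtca

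Library totals ranged from 1415496 counts (rpb4∆) to 7268211 counts (rpb1-84), so low members are known least well in rpb4∆ and in WT (3165891 and 2727771 counts). RPB4 had 7 and 4 counts in the rpb4∆ libraries against 606 and 508 in WT and 866 to 1140 in the strains labelled as lacking RRP6. It was also low, at 33 and 59 counts, in the rpb1-84 libraries, the strain with the RPB4 tag, and the part of this in the comparisons that use rpb1-84 was not tested. RRP6 (YOR001W) had 572 and 548 counts in rrp6∆ and 290 and 176 in rpb1-84 rrp6∆, against 231 and 171 in WT. Counts per gene do not show where in the gene its tags lie, so these values do not check the deletion, and rrp6∆ names the strain as labelled. Within the WT pair, replicate 1 was the higher for 19 of the 23 members tested, with a median difference of 0.30 on the log2 scale where the median over all features was 0.0038. Its part in the results was not tested; the values without each library are given where they matter.

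The 24 box H/ACA snoRNAs took a small share of the WT libraries and a large one of the libraries without RRP6. They held 0.299% and 0.273% of all counts in WT, 2.36% and 2.16% in rrp6∆, 2.18% and 2.07% in rpb1-84 rrp6∆, 0.119% and 0.125% in rpb1-84, and 0.102% and 0.114% in rpb4∆. The libraries of rrp6∆ and of rpb1-84 rrp6∆ lay above all others. The mean share in rrp6∆ was 7.90 times that in WT and in rpb1-84 rrp6∆ 7.42 times, and both pairs of libraries were above both WT libraries (two-sided exact permutation p = 0.333, and 2 libraries against 2 cannot go lower). snR86 alone made up 56.5% and 61.7% of the H/ACA counts in WT, but 5.91% and 6.78% in rrp6∆ and 16.1% and 14.2% in rpb1-84. Without it the share was 0.117% ± 0.0181 in WT and 2.12% ± 0.145 in rrp6∆ (SD, n = 2 each), a ratio of 18.

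**Figure D1:**
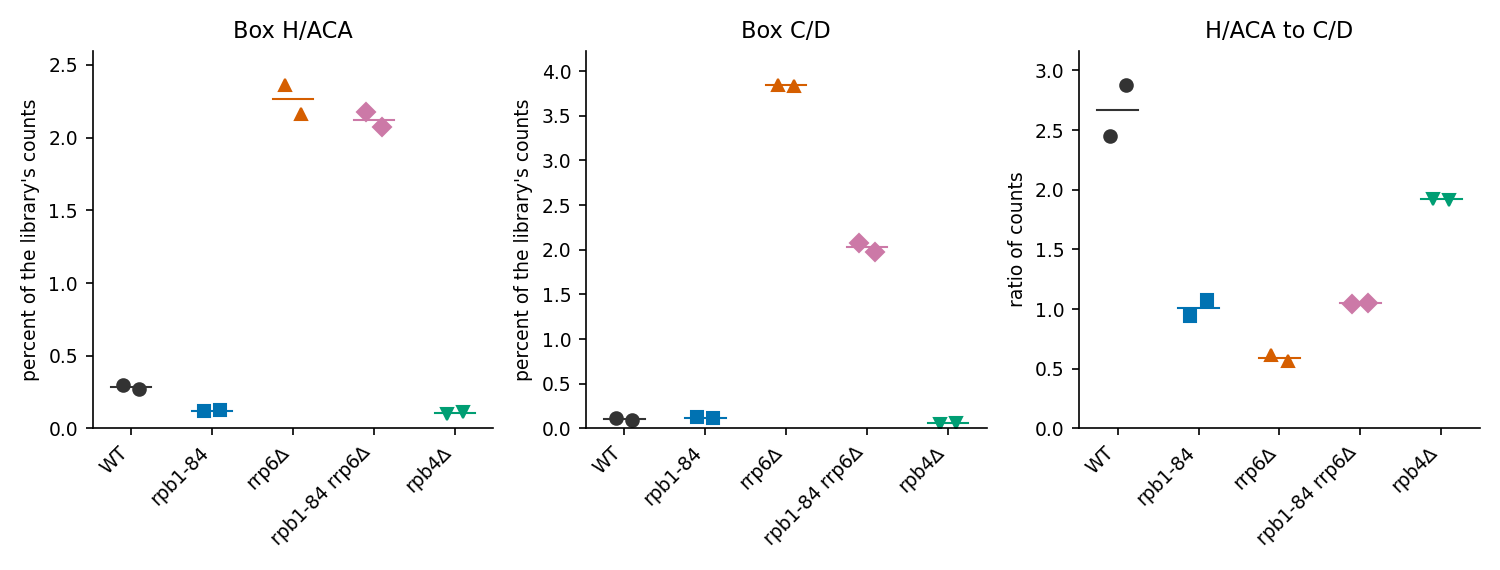
Share of each library's counts (percent) on the box H/ACA snoRNAs and on the box C/D snoRNAs, and the ratio of their counts, by strain; symbols are the 2 libraries and lines their mean. The H/ACA share was near 2% in both strains without RRP6, whereas the C/D share was 3.84% in rrp6∆ and 2.03% in rpb1-84 rrp6∆.

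The other class, the 33 box C/D snoRNAs with rows of their own, which guide ribose methylation, gives a comparison. Its share was 3.84% ± 0.00452 in rrp6∆, 2.03% ± 0.0764 in rpb1-84 rrp6∆ and 0.108% ± 0.0191 in WT. The ratio of H/ACA to C/D counts was 0.615 and 0.564 in the rrp6∆ libraries and 1.05 and 1.05 in the rpb1-84 rrp6∆ libraries, which do not overlap (two-sided exact permutation p = 0.333, the lowest value available). In WT it was 2.45 and 2.88. Without snR86 it was 1.07 and 1.10 in WT, 0.578 and 0.526 in rrp6∆ and 0.986 and 0.982 in rpb1-84 rrp6∆. Between rpb1-84 rrp6∆ and rrp6∆ the C/D share changed by a factor of 0.528 and the H/ACA share by a factor of 0.939, and in the latter the libraries overlapped (two-sided exact permutation p = 0.667).

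Per kilobase of annotated length, snR86 had the highest level in WT, 1740 normalised CPM (library-size scaled counts, TMM factors) per kilobase, followed by snR49 (732), snR36 (719) and snR33 (572). The lowest were snR82 (5.48), snR32 (3.46) and snR81 (1.62). Tags come from 3′ ends and do not grow with length, but snR86, the longest member at 1004 bases, was also the first by counts alone. In rrp6∆ the order was another one, with snR34 (9588), snR35 (8062), snR8 (6896) and snR46 (6137) in front and snR86 at 1137 normalised CPM per kilobase. These orders depend on the division by length. By normalised CPM alone, snR36 (131) was above snR49 (121) in WT. In rrp6∆ snR34 (1946), snR37 (1860), snR35 (1645) and snR30 (1318) were then in front, and snR8 (1310) and snR46 (1209) came after them. The plot of levels by library shows each member in each library.

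**Figure D2:**
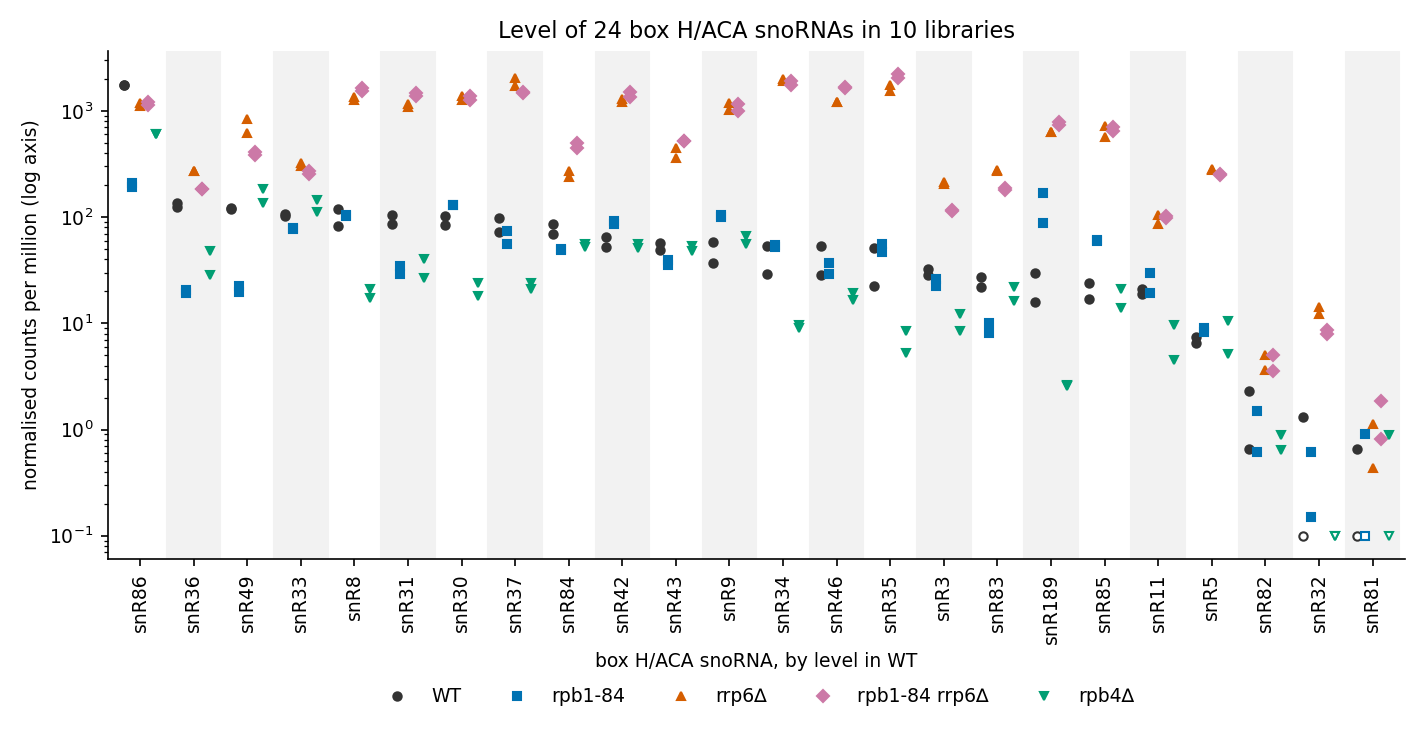
Normalised CPM (log axis) of the 24 box H/ACA snoRNAs in each of the 10 libraries, ordered by the level in WT; each symbol is 1 library and open symbols at 0.1 stand for a count of 0. In all but snR86 the mean of the rrp6∆ libraries was above that of the WT libraries, and in snR86 WT was at 1740 and 1753 against 1101 and 1183 in rrp6∆.

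The first comparison asked what loss of RRP6 did to these snoRNAs when RPB1 was intact. Of the 24 members, 23 passed the filter on low counts and were tested; a member could also pass through the strain in which it was high. 22 of them were higher in rrp6∆ than in WT by more than 1 on the log2 scale with an adjusted p below 0.1 (called; edgeR quasi-likelihood test with Benjamini-Hochberg adjustment over 9197 features), where 32.2% of all features were called higher and 38.9% in either direction. At an adjusted p below 0.1 and any size, 22 members were higher (39.1% of all features) and 1 was lower (37.8%). None was called lower, against 6.75% of all features, and the count was also 0 by DESeq2, with 1 member lower at an unadjusted p under 0.05. Their median log2 fold change was 3.75, beside −0.011 over all features and −0.48 over ORFs. For box C/D snoRNAs 30 of 33 were called higher with a median of 5.01. Of the 24, 22 had both rrp6∆ libraries above both WT libraries (41.7% of the features tested), snR86 had both below (44.7% of the features tested), and the libraries of snR81 overlapped.

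Among the guides of 25S rRNA, 14 of 15 tested were called higher, with changes from −0.55 to 5.59. The counts of snR34 were 13434 and 13871 in rrp6∆ against 164 and 77 in WT, 11604 and 8433 in rpb1-84 rrp6∆, 170 and 369 in rpb1-84 and 14 and 11 in rpb4∆. Both strains without RRP6 were far above the others, and the level went from 41.3 ± 17 to 1946 ± 76.9 normalised CPM, a log2 fold change of 5.59 (SE 0.142, adjusted p = 3.04e-28 from edgeR). For snR5, which guides positions 1004 and 1124, the counts were 1949 and 1952 in rrp6∆ against 23 and 17 in WT, 1567 and 1184 in rpb1-84 rrp6∆, 27 and 60 in rpb1-84 and 8 and 12 in rpb4∆. Its level rose by 5.36 (SE 0.152), and the spread within each pair was small against this.

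snR46, the guide of position 2865, had counts of 8638 and 8330 in rrp6∆ against 165 and 75 in WT, 10331 and 7907 in rpb1-84 rrp6∆, 121 and 194 in rpb1-84 and 26 and 22 in rpb4∆. It rose by 4.91 on the log2 scale (SE 0.140), or 30.1-fold. The WT pair differed more than any other pair in this gene.

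snR9, which guides positions 2340 and 2345, had 8478 and 6986 in rrp6∆ against 178 and 97 in WT, 7010 and 4769 in rpb1-84 rrp6∆, 330 and 708 in rpb1-84 and 86 and 76 in rpb4∆. The rise was 4.58 (SE 0.134). Its rpb1-84 libraries lay above WT. snR37 (position 2944) and snR42 (position 2975) rose by 4.50 and 4.48, snR8 (positions 960 and 986) by 3.75, and snR11 (position 2416) by 2.31. All of these had both rrp6∆ libraries above WT.

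snR43 and snR3 lay between snR8 and snR11 in the size of their change. snR43, which guides position 966, had 2575 and 3117 in rrp6∆ against 174 and 129 in WT, 3163 and 2496 in rpb1-84 rrp6∆, 129 and 235 in rpb1-84 and 74 and 61 in rpb4∆, a rise of 3.0 (SE 0.119). snR3, with 3 sites at positions 2129, 2133 and 2264, had 1509 and 1418 in rrp6∆ against 88 and 86 in WT, 714 and 542 in rpb1-84 rrp6∆, 74 and 176 in rpb1-84 and 13 and 14 in rpb4∆, a rise of 2.83 (SE 0.117). In both, the strains without RRP6 stood above the rest. The rrp6∆ libraries of snR43 were at 363 and 450 normalised CPM.

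snR84, which guides position 2266, had 1696 and 1898 in rrp6∆ against 267 and 183 in WT, 2733 and 2368 in rpb1-84 rrp6∆, 166 and 327 in rpb1-84 and 81 and 64 in rpb4∆. It rose by 1.76 (SE 0.113) in rrp6∆, and here rpb1-84 rrp6∆ was above rrp6∆. snR33, the guide of position 1042, had 2146 and 2234 in rrp6∆ against 315 and 281 in WT, 1671 and 1229 in rpb1-84 rrp6∆, 256 and 525 in rpb1-84 and 174 and 164 in rpb4∆, a rise of 1.64 (SE 0.0976). This was one of the members best counted in WT.

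snR32 and snR82 had few counts in WT and rpb1-84 and passed the filter through the strains without RRP6, where they were high. Their place among the 22 members called higher is therefore no support for that count, and their size rests on single WT libraries. The counts of snR32 (position 2191) were 101 and 85 in rrp6∆ against 4 and 0 in WT, 53 and 38 in rpb1-84 rrp6∆, 2 and 1 in rpb1-84 and 0 and 0 in rpb4∆, a log2 fold change of 4.25 (SE 0.460). Without WT replicate 2 it was 3.37, and without WT replicate 1, which leaves a WT count of 0, the fit gave 9.21, which is no measure of size. The counts of snR82 (positions 1110, 2349 and 2351) were 36 and 25 in rrp6∆ against 2 and 6 in WT, 31 and 17 in rpb1-84 rrp6∆, 2 and 10 in rpb1-84 and 1 and 1 in rpb4∆. Its change of 1.67 (SE 0.502, adjusted p = 0.00350 from edgeR) was 0.98 without WT replicate 1 (adjusted p = 0.141), which ends the call, and 2.74 without WT replicate 2. snR81, which also modifies U2 snRNA, had counts of 8 and 3 in rrp6∆ against 2 and 0 in WT, 5 and 9 in rpb1-84 rrp6∆, 3 and 0 in rpb1-84 and 0 and 1 in rpb4∆ and was not tested. Its summed counts per total gave a ratio of rrp6∆ to WT of 2.90, with a 95% exact interval of 0.632 to 26.9 that covers counting error only, so no change was detectable at this depth.

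snR86, the guide of position 2314, went the other way. It had 7816 and 8201 in rrp6∆ against 5350 and 4602 in WT, 6878 and 5801 in rpb1-84 rrp6∆, 682 and 1292 in rpb1-84 and 947 and 685 in rpb4∆, and its level was 1747 ± 8.96 normalised CPM in WT and 1142 ± 58.1 in rrp6∆ (SD, n = 2 each). It fell by 0.55 on the log2 scale (SE 0.0873, adjusted p = 8.99e-07 from edgeR). With scaling on ORF rows alone, the change was −0.066 (edgeR adjusted p = 0.498), so this fall depended on the scaling.

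All 5 guides of 18S rRNA with rows were called higher, from 1.10 to 5.50. snR35, which guides the hypermodified position 1191, had 12468 and 10630 in rrp6∆ against 158 and 59 in WT, 13616 and 9869 in rpb1-84 rrp6∆, 154 and 375 in rpb1-84 and 13 and 6 in rpb4∆. It rose by 5.50 (SE 0.160), or by 6.26 without WT replicate 1, since WT replicate 2 was the lower. snR85 (position 1181) had 5126 and 3924 in rrp6∆ against 73 and 44 in WT, 4293 and 3114 in rpb1-84 rrp6∆, 197 and 404 in rpb1-84 and 33 and 16 in rpb4∆, a rise of 5.03 (SE 0.144). The RefSeq annotation marks the sites of snR35 and snR85 as predicted. Both snoRNAs had low levels in WT, and both rpb1-84 libraries of snR85 were above those of WT.

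snR31 (position 999) and snR5 are divergent neighbours on chromosome XV with 220 bases between them. snR31 had 8250 and 7484 in rrp6∆ against 322 and 228 in WT, 8959 and 6617 in rpb1-84 rrp6∆, 95 and 234 in rpb1-84 and 41 and 46 in rpb4∆, a rise of 3.60 (SE 0.107) against 5.36 for snR5. snR83, with 2 sites at positions 1290 and 1415, had 1976 and 1886 in rrp6∆ against 67 and 72 in WT, 1138 and 863 in rpb1-84 rrp6∆, 33 and 54 in rpb1-84 and 25 and 25 in rpb4∆, a rise of 3.55 (SE 0.123). The counts of snR36 were 1915 and 1877 in rrp6∆ against 418 and 330 in WT, 1122 and 885 in rpb1-84 rrp6∆, 63 and 138 in rpb1-84 and 44 and 55 in rpb4∆. Its rise of 1.10 (SE 0.0943, adjusted p = 1.18e-12 from edgeR) was just past the threshold of 1, and the WT libraries were well counted.

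Of the guides of both rRNAs, snR189 (position 2735 of 25S and 466 of 18S) had 4491 and 4364 in rrp6∆ against 92 and 42 in WT, 4755 and 3560 in rpb1-84 rrp6∆, 288 and 1119 in rpb1-84 and 4 and 3 in rpb4∆. It rose by 4.81 (SE 0.141). Its rpb1-84 libraries were far apart, at 87.7 and 167 normalised CPM. snR49 (position 990 of 25S and 120, 211 and 302 of 18S) had 5981 and 4291 in rrp6∆ against 373 and 316 in WT, 2523 and 1863 in rpb1-84 rrp6∆, 74 and 131 in rpb1-84 and 209 and 208 in rpb4∆, a rise of 2.65 (SE 0.113). snR30, which is essential and needed to release the 18S precursor, had 9698 and 8803 in rrp6∆ against 312 and 219 in WT, 8419 and 6083 in rpb1-84 rrp6∆, 431 and 872 in rpb1-84 and 28 and 27 in rpb4∆. It rose by 3.89 (SE 0.109), near the median of the class. The row that snR10 shares with YGL088W had 12 and 5 counts in WT, 85 and 84 in rrp6∆, 40 and 41 in rpb1-84 rrp6∆, 5 and 6 in rpb1-84 and 1 and 0 in rpb4∆, and its tags cannot be assigned to either gene.

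**Figure D3:**
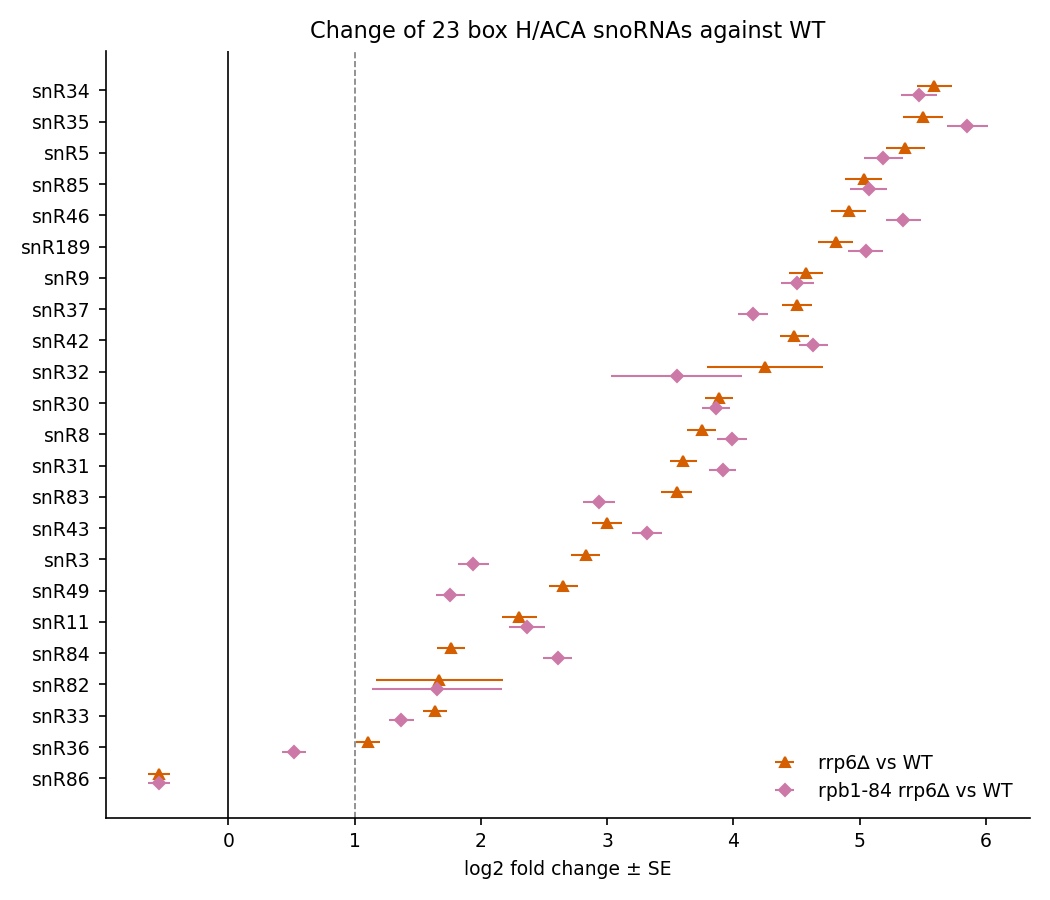
Log2 fold change (± SE) against WT of the 23 box H/ACA snoRNAs tested, in rrp6∆ (triangles) and in rpb1-84 rrp6∆ (diamonds), ordered by the former; the dashed line is the threshold of 1. All but snR86 were above 0, from 1.10 for snR36 to 5.59 for snR34 in rrp6∆.

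In rpb1-84 rrp6∆ against the same WT, 21 of 23 members were called higher (28% of all features, 34.4% in either direction) and none lower (6.4% of all features; 0 by DESeq2 and 1 at an unadjusted p under 0.05 by edgeR). At any size, 22 members were higher (36.7%) and 1 lower (32.5%). By library, 23 of the 24 lay above both WT values (41.9% of the features tested) and snR86 below (40.5%). The median was 3.86, beside 0.029 over all features and 3.92 for box C/D snoRNAs, of which 30 of 33 were called higher. The members not called were snR86, at −0.55, and snR36, at 0.52 (SE 0.0967, adjusted p = 1.67e-05 from edgeR), which rose but stayed under the threshold of 1. snR35 had the largest change at 5.85 (SE 0.161; 6.62 without WT replicate 1), then snR34 at 5.47 and snR46 at 5.35. The call of snR82 was again lost without WT replicate 1 (0.98, edgeR adjusted p = 0.168, against 1.65), and that of snR32 moved from 3.55 to 2.68 without WT replicate 2. As in the first comparison, snR32 and snR82 passed the filter through the strains without RRP6, so their calls are no support for the 21 of 23. The comparisons with WT share the WT libraries, so their values are not independent of each other.

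The comparison of rpb1-84 rrp6∆ with rrp6∆ asked what the foot mutation did in cells that lacked RRP6 in both arms. No member passed a change of 1 in either direction by edgeR or DESeq2, where 1.96% of all features were called higher and 6.49% lower, 8.45% in all. Smaller changes were found in both directions: by an adjusted p below 0.1 at any size, 7 members were higher (25.2% of all features) and 8 lower (24.9% of all features), with the same counts at an unadjusted p under 0.05. By library, 8 of the 24 members had both rpb1-84 rrp6∆ values above both rrp6∆ values (36.7% of the features tested), 8 had both below (34.4%), and 8 overlapped, shares near those of all features. The median was −0.017, beside −0.021 over all features and 0.14 over ORFs. Box C/D snoRNAs had a median of −0.67, with 12 of 33 called lower and 28 lower at any size. The difference between the classes was not tested as such.

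The split depended on the scaling. With factors from ORF rows alone, which moved the median of all features by −0.15, 2 members were higher and 10 lower at any size and 2 were called lower (snR3 and snR49). With library totals it was 4 higher and 10 lower, and DESeq2 gave 3 higher and 6 lower. The percentage of all features passing was not taken under these settings, so these counts cannot be set against features in general. Without rpb1-84 rrp6∆ replicate 1, 4 rather than 7 members were higher, and without rrp6∆ replicate 2, 1 member, snR49, was called lower.

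snR84 was the most raised. Its level went from 256 ± 24.7 in rrp6∆ to 470.3 ± 32.1 normalised CPM in rpb1-84 rrp6∆ (SD, n = 2 each). The log2 fold change was 0.85 (SE 0.0942, adjusted p = 5.57e-09 from edgeR). The libraries were at 239 and 274 in rrp6∆ and at 448 and 493 in rpb1-84 rrp6∆. snR46 rose by 0.44, snR35 by 0.35, snR43 by 0.32, snR31 by 0.31, and snR8 and snR189 by 0.24 each. Under ORF scaling snR84 and snR46 kept an adjusted p below 0.1 in this direction, while snR35, snR43, snR31, snR8 and snR189 did not (edgeR adjusted p from 0.112 for snR43 and snR31 to 0.457 for snR189). By DESeq2 the adjusted p of snR46 was 0.453, so of these members snR84 alone kept its direction and an adjusted p below 0.1 under both.

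At the other end were snR49 and snR3. snR49 was at 842 and 619 in rrp6∆ and 413 and 388 in rpb1-84 rrp6∆, and it fell by 0.90 (SE 0.0985, adjusted p = 4.08e-09 from edgeR). snR3 was at 213 and 205 against 117 and 113, and it fell by 0.89 (SE 0.0886). Neither pair overlapped. snR32 fell by 0.70 on low counts, and by DESeq2 its adjusted p was 0.113. Smaller falls were those of snR83 by 0.62, snR36 by 0.58, snR37 by 0.35, snR33 by 0.27 and snR5 by 0.17. The last of these had an adjusted p of 0.0939 that rose above 0.1 in 4 of the alternatives and without 5 of the 6 libraries.

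For the essential snR30 the difference was −0.025, with a 95% normal interval of −0.20 to 0.15, and for snR86 it was 0.0017, with an interval of −0.17 to 0.17. A change of 1 lies outside both intervals, and a smaller one within them could not be seen. Guides of 25S and of 18S were found on both sides: 4 of 15 and 2 of 5 were higher, and 5 of 15 and 2 of 5 lower.

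**Figure D4:**
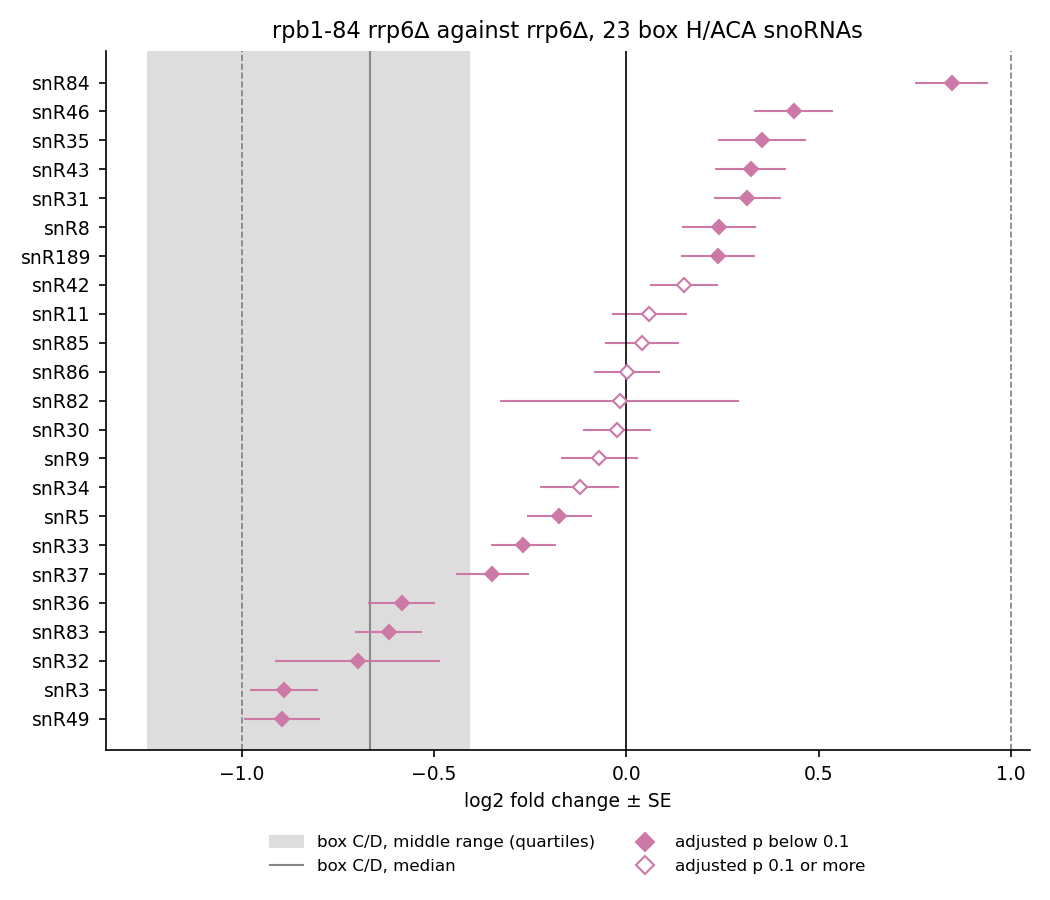
Log2 fold change (± SE) in rpb1-84 rrp6∆ against rrp6∆ for the 23 box H/ACA snoRNAs tested; filled symbols have an adjusted p below 0.1, dashed lines mark a change of 1, and the grey band and line are the quartiles and the median of the box C/D snoRNAs. The members ran from −0.90 for snR49 to 0.85 for snR84 around a median of −0.017, while the C/D median was −0.67.

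The effect of RRP6 deletion was also taken within the foot mutant, rpb1-84 rrp6∆ against rpb1-84, and set against the effect with RPB1. The rpb1-84 libraries belong to another experiment and carry the RPB4 tag, so the deletion, the experiment and the tag cannot be told apart here. 23 of 23 members were called higher (32.1% of all features, 50.8% in either direction) and none lower (18.7%; also 0 by DESeq2 and at an unadjusted p under 0.05), with changes from 1.71 (snR33) to 5.65 (snR46) and a median of 3.77. By library, 23 of the 24 lay above both rpb1-84 values (47% of the features tested), none below (40.1%), and snR81 overlapped. The share of counts on the class was 17.4 times higher. snR86 was among the members that rose, from 200.2 ± 10.7 in rpb1-84 to 1167 ± 57.6 in rpb1-84 rrp6∆, a change of 2.50 (SE 0.10). The change of snR189 was 2.48 and became 3.09 without rpb1-84 replicate 2. Low counts made snR32 (4.63) and snR82 (1.80) depend on single libraries: without rpb1-84 replicate 2 they were 3.69 and 2.77, and without rpb1-84 replicate 1 snR32 was 5.52. Both passed the filter through the strains without RRP6, so their place among the 23 is no support for that count.

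The difference between both effects, the interaction, was called for 8 of 23 members (29% of all features), 5 higher (13%) and 3 lower (16%). At any size, 8 were higher (23.2% of all features) and 8 lower (27.6%), or 5 lower without WT replicate 2 or without rpb1-84 rrp6∆ replicate 2. Of 5206 ORFs, 734 were called higher and 725 lower, so calls were not limited to these snoRNAs. What made these calls was not tested. The median of the members was 0.073. It was highest for snR86, at 3.05 (SE 0.136, adjusted p = 1.69e-19 from edgeR), which fell slightly with RPB1 and rose with rpb1-84. snR36 followed at 2.04 (SE 0.163), then snR31 at 1.79 (SE 0.167), snR49 at 1.57 (SE 0.186) and snR84 at 1.43 (SE 0.169). The rise was smaller with rpb1-84 for snR189, at −2.33 (SE 0.263), snR85, at −1.59 (SE 0.201), and snR9, at −1.26 (SE 0.183). Without rpb1-84 replicate 2 the value of snR189 was −1.72, and without WT replicate 2 that of snR9 was −0.98, below the threshold of 1.

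**Figure D5:**
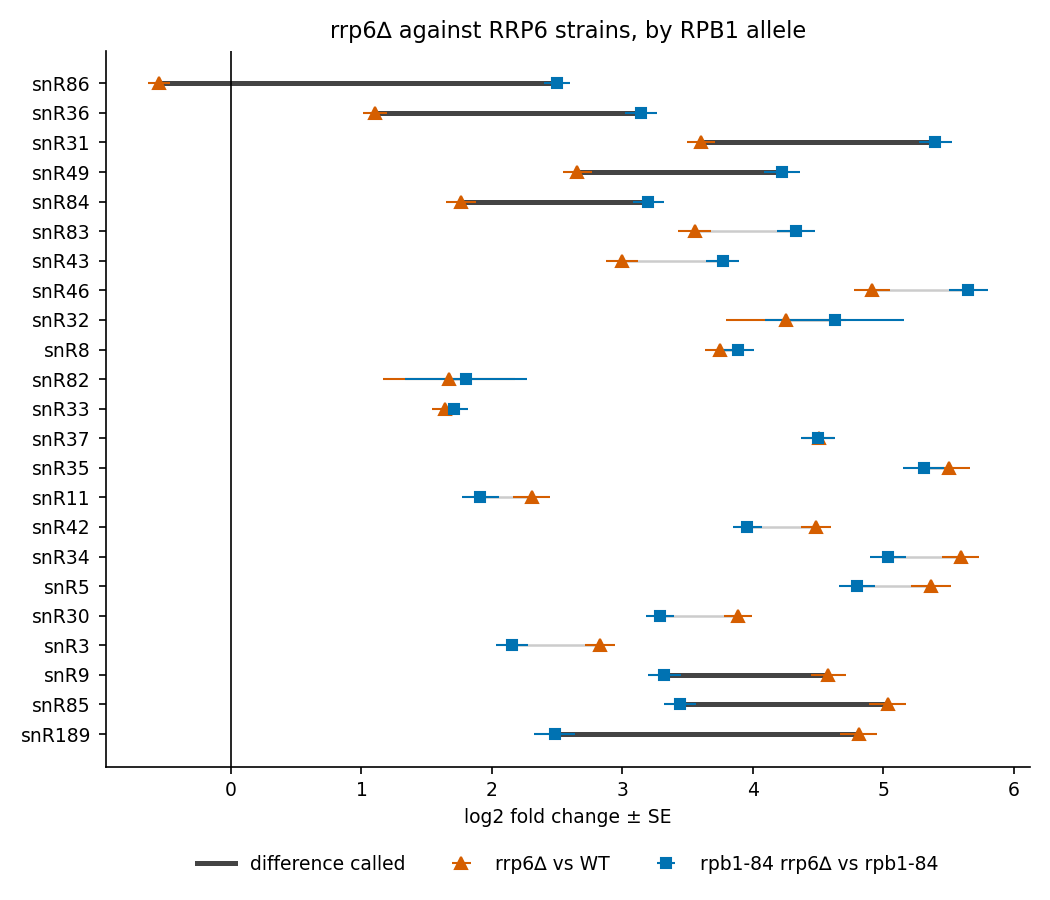
Log2 fold change (± SE) of the 23 box H/ACA snoRNAs on loss of RRP6 with RPB1 (triangles, rrp6∆ vs WT) and with rpb1-84 (squares, rpb1-84 rrp6∆ vs rpb1-84), ordered by their difference; dark bars join the 8 members whose difference was called. snR86 went from −0.55 to 2.50 and snR189 from 4.81 to 2.48.

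These 8 members split by their level in the strains that have RRP6. The 5 with a positive difference were lower in both rpb1-84 libraries than in both WT libraries: snR86 was at 208 and 193 against 1740 and 1753 normalised CPM, snR36 at 19.2 and 20.6 against 136 and 126, and snR49 at 22.5 and 19.5 against 121 and 120. snR31 was at 28.9 and 34.9 against 105 and 86.8, and snR84 at 50.6 and 48.8 against 86.9 and 69.7. The 3 with a negative difference were higher in both rpb1-84 libraries: snR189 at 87.7 and 167 against 29.9 and 16.0, snR85 at 60.0 and 60.2 against 23.7 and 16.8, and snR9 at 101 and 106 against 57.9 and 36.9. Since the difference is made from these same levels, this describes where it arose and is no separate support.

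Over all 24 members, 6 were higher in both rpb1-84 libraries than in both WT libraries (37.3% of the features tested), 9 lower (38.4%), and 9 overlapped. The mean level of snR86 was 8.73 times higher in WT than in rpb1-84, that of snR36 6.58 times and that of snR49 5.75 times, while that of snR189 was 5.54 times higher in rpb1-84. In rpb4∆, 13 members were lower in both libraries than in WT (38.5% of the features tested) and 2 higher, snR33 and snR49 (30.9%). snR86 stood at 610 and 603 there, snR189 at 2.58 and 2.64, and snR36 at 28.3 and 48.4. snR49, low in rpb1-84, was at 135 and 183 in rpb4∆. These strains differ from WT in experiment, and rpb4∆ also in lineage, so no test was made.

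The genes that make, bind and mature these snoRNAs were read from lists of 6 and 18 genes. Of the 6 for the H/ACA particle and its assembly, none was called in rrp6∆ against WT by edgeR or DESeq2, but all 6 were lower at an adjusted p below 0.1 (5 at an unadjusted p under 0.05), with changes from −0.78 for NHP2 to −0.19 for CBF5, the pseudouridine synthase. Of all ORFs, 64.4% were lower in this sense and the median was −0.48. Of the 18 for termination and 3′ maturation, 1 was called higher (4.17% of ORFs) and 2 lower (11.5% of ORFs). NRD1, of the termination complex, rose by 1.46 (SE 0.0992), while MTR4, the TRAMP helicase, fell by 1.11 and TRF4, its poly(A) polymerase, by 1.04. Both falls were just past the threshold of 1, beside the ORF median of −0.48. With factors from ORF rows the median of all features moved up by 0.49. These genes were not read under that scaling, so both calls may depend on it. In rpb1-84 rrp6∆ against rrp6∆ none of either list was called by edgeR or DESeq2, where edgeR called 2.11% of ORFs higher and 1.95% lower. At an adjusted p below 0.1, 3 of 6 were higher and 1 lower, and 9 of 18 higher and 2 lower, where 37% of ORFs were higher and 14% lower, and the counts at an unadjusted p under 0.05 were the same for both lists. The largest of these changes was that of LHP1, the yeast La protein, which rose by 0.67. In the interaction, CBF5 (−3.42) was called lower and NOP10 (1.27) higher among the 6. Among the 18, REX1 (4.68), PAP1 (3.03), TRF5 (2.18) and RNT1 (1.42) were called higher and LRP1 (−1.46) lower, where 14.1% of ORFs were called higher and 13.9% lower. CBF5 changed by −3.61 in rpb1-84 rrp6∆ against rpb1-84 and by −0.19 in rrp6∆ against WT, and NOP10 by 0.53 and −0.73. The rpb1-84 libraries enter here too, so the deletion, the experiment and the RPB4 tag cannot be told apart.

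By sequence, the members with ACA at the canonical place had changes from 1.64 to 5.59 in rrp6∆ against WT (n = 11, median 4.25). Those with ATA had changes from 1.10 to 3.75 (n = 4, median 2.91), and those with AAA were snR82 at 1.67 and snR86 at −0.55. The 6 tested members with another triplet there had changes from 3.60 to 5.36, with a median of 4.69, above that of ACA. The ACA median is the value of snR32. As said above, snR32 and snR82 passed the filter through the strains without RRP6, and their size rests on single WT libraries. The ranges of ACA, ATA and the other triplets overlap, and no test was made. Internal runs of 6 or more A were found in snR36, snR43 and snR84, which changed by 1.10, 3.0 and 1.76. Oligo-dT can prime at such runs, and their part in the levels was not tested. The next annotated gene downstream lay 26 to 495 bases away (median 193.5) and was on the same strand for 7 of 24 members.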

How the data were processed

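RNA from 10 cultures (5 strains, 2 biological replicates each) was sequenced by QuantSeq 3′ mRNA-Seq. The deposited values are raw counts per feature: the authors clipped adapters (Fastx Clipper) after a FastQC check, mapped the tags to R64 by HISAT2, summed them per gene in featureCounts and tested with DESeq2. Tool versions, the strand setting and the treatment of overlapping features are not given in the sources used here.

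Counts were tested with edgeR 4.0.16 (R 4.3.3) by quasi-likelihood, with TMM scaling and filterByExpr by strain, in a fit of 6 libraries (9197 features) and, where rpb1-84 entered, of 8 (9264 features). P-values were adjusted by Benjamini-Hochberg over all features, and called means an absolute log2 fold change above 1 with an adjusted p below 0.1, the study's thresholds. SDs and n = 2 refer to libraries; normalised CPM used TMM over the 10 libraries. Library totals were 1415496 to 7268211 counts. Intervals cover counting error only where so stated, and PCR copies are not independent molecules. The fit of 6 libraries was tried on simulated counts for rrp6∆ against WT only, with as many features raised as lowered. In the data more features were called higher than lower, so this does not check the scaling. The fit of 8 libraries and the interaction were not tried in this way. Alternatives were other scalings, no filter, DESeq2 1.42.0, other sets of libraries, a replicate block and leaving out each library.

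The members, gene lists and tests were chosen with earlier results of these data known. Counts in each library are given for snR5, snR82, snR30 and snR10, for the 4 members with the largest and the 4 with the smallest change in rrp6∆ against WT and in rpb1-84 rrp6∆ against rrp6∆, and for every member called in the interaction; snR81, the member not tested, was added. Sequences and positions came from RefSeq (R64). No deposited per-sample column was left unmapped (0).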

Additional observations from a re-analysis of the deposited data

Results flagged for a closer look

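The effect of RRP6 deletion differed between the rpb1-84 and the RPB1 strains for 8 of 23 box H/ACA snoRNAs by the interaction test, where 29% of all features were called, so the count is near that of features in general. The test sets 8 libraries of different experiments against each other. The differences were 3.05 for snR86, 2.04 for snR36, 1.79 for snR31, 1.57 for snR49 and 1.43 for snR84 (log2, a larger rise with rpb1-84, except that snR86 fell by 0.55 with RPB1), and −2.33 for snR189, −1.59 for snR85 and −1.26 for snR9 (smaller rise with rpb1-84). Without WT replicate 2 the value of snR9 was −0.98, which ends its call. The RPB4 tag and the experiment change together with these values, and their part was not tested. With 2 libraries a strain, no single library could be tested for standing apart.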

How the results depend on the processing

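Same replicate numbers did not pair the cultures (correlation of same-numbered deviations −0.019 to 0.037 over 9197 features; over the 23 members it ran from −0.38 to 0.63, with 0.63 for rrp6∆ and rpb1-84 rrp6∆ and 0.45 for WT and rpb1-84). With the replicate block, 22 members were still called higher in rrp6∆ against WT (median 3.76), and of the counts of members it moved that of members lower in the interaction at any size, from 8 to 7. With TMM factors from ORF rows, the medians were 4.24 in rrp6∆ against WT, 4.20 in rpb1-84 rrp6∆ against WT, −0.16 in rpb1-84 rrp6∆ against rrp6∆ and 4.25 in rpb1-84 rrp6∆ against rpb1-84, and 0 members were lower in rrp6∆ against WT at any size (snR86 being the member lost). With library totals the last pair of medians was −0.16 and 4.09, and without the filter the last was 3.60. The percentage of all features passing was not taken under these alternatives. In rpb1-84 rrp6∆ against rrp6∆, 2 members were called lower under both ORF factors and library totals, and 2, 4 and 3 were higher at any size under ORF factors, library totals and DESeq2. Changes near 0 there turned: snR82 to 1.88e-05 without the filter, snR11 to −0.089 and −0.083, snR85 to −0.11 and −0.10, and snR86 to −0.15 and −0.14 (ORF factors and library totals), and snR86 also to −0.028 with DESeq2 size factors, −0.028 with DESeq2 and −0.0015 with 4 libraries. The snR37 interaction became 0.041, 0.00062 and 0.030 with DESeq2 size factors, library totals and DESeq2. Over counts on ORF rows the share ratios were 10.2, 8.72, 0.857 and 20.7 (in the order of the medians above), and without the member with the highest summed count 7.15, 6.80 and 16.4 for all but rpb1-84 rrp6∆ against rrp6∆.

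Leaving out 1 library at a time gave medians of 3.47 to 4.19 in rpb1-84 rrp6∆ against WT, 3.60 to 3.82 against rpb1-84 and −0.36 to 0.22 in the interaction. It gave 0 to 1 members called lower and 4 to 8 higher at any size in rpb1-84 rrp6∆ against rrp6∆, and 5 to 9 lower in the interaction. In rpb1-84 rrp6∆ against rrp6∆ the changes were −0.30 to 0.24 for snR82, −0.065 to 0.032 for snR30, −0.060 to 0.20 for snR11, −0.11 to 0.22 for snR85, −0.056 to 0.074 for snR86 and −0.18 to 0.050 for snR9. In the interaction they were −0.95 to 1.10 for snR82, −4.53 to 1.28 for snR32, −0.25 to 0.22 for snR37, −0.63 to 0.066 for snR11, −0.96 to 0.26 for snR35 and −0.18 to 0.38 for snR8. Share ratios were 7.56 to 8.28, 7.10 to 7.77 and 17 to 17.9 for rrp6∆ against WT, rpb1-84 rrp6∆ against WT and rpb1-84 rrp6∆ against rpb1-84. The cause of these moves was not tested. With 2 libraries a strain, low members such as snR32, snR81 and snR82 are limited by depth.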
